A study of Rattus norvegicus with 36 samples.

Results

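The transcripts described here were 4 genes of the circadian clock, Arntl (ENSRNOG00000014448), Clock (ENSRNOG00000002175), Nr1d1 (ENSRNOG00000009329) and Dbp (ENSRNOG00000021027), in the rat pineal gland. They were chosen by Ensembl identifier and not by a rule on their values, though earlier results of these data were known. They are 4 of the 29516 genes listed for each of 36 RNA-seq libraries. All 4 passed the filter on low counts in every comparison. Arntl, also called Bmal1, encodes a transcription factor that pairs with the CLOCK protein. The pair binds E-box sequences and activates the genes of its own repressors and a set of output genes, among them Nr1d1 and Dbp. Nr1d1 encodes the nuclear receptor REV-ERB alpha, which represses Arntl, and Dbp encodes a transcription factor that acts on D-box sequences. In the pineal gland the central clock acts through the superior cervical ganglia (SCG), whose sympathetic fibres release norepinephrine at night, raise cyclic AMP in pinealocytes and drive melatonin synthesis.

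All glands came from Sprague-Dawley rats kept under 14 h of light and 10 h of dark. The in vivo experiment held glands of 40-day-old rats of both sexes, taken at mid-day (ZT7, hours after lights on) or midnight (ZT19). The rats had no operation (Control), or on postnatal day 5 a sham operation (Sham), a decentralization that cut the SCG off from the central nervous system (DCN), or a removal of both ganglia (SCGX). The surgical groups and time points gave 8 conditions with 3 pooled libraries each. The in vitro experiment held glands of female rats aged 2 to 3 months, cultured for 48 h and then left untreated or exposed for 6 h to 1 µM norepinephrine (NE) or 500 µM dibutyryl cyclic AMP (DBcAMP), a cyclic AMP analog that enters cells, with 3 pooled libraries each. A further pineal library at ZT7, 1 at ZT19 and 1 pool of RNA from 15 other tissues taken at ZT7 had no replicates. Because each library is a pool of glands, p-values measure the spread between pools, and fewer cells of a type cannot be told apart from less RNA per cell.

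Library totals on genes were 12985072 to 18504240 read-pairs in vivo, 12556861 to 18524435 in vitro and 28836161 to 38574186 in the libraries without replicates. Members were counted at 322 to 6770 read-pairs per library. Sham night replicate 3 lay farthest from the other pools of its group among the 24 in vivo libraries, with a root mean square log2 difference of 0.587 over 11706 genes. Next came Sham night replicate 1 with 0.46 and DCN day replicate 1 with 0.429. All went into the main tests. Sham night replicate 3 and DCN day replicate 1, but not Sham night replicate 1, were left out together in an alternative. The tissue and the operation labels were not checked against marker genes here.

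The 300-base promoter windows of Arntl, Nr1d1 and Dbp, 250 bases before to 50 after an annotated start, are shown because these 3 genes were the ones called in at least 1 comparison. They are RefSeq sequences of the GRCr8 assembly, read 5′ to 3′ on the gene's strand, and not of the older assembly on which the reads were counted. Capitals mark matches to the letters searched on both strands, which were the E-box CACGTG, the E-box-like CACGTT, the D-box TTATGTAA and its variant TTATGCAA, the half-site AGGTCA shared by REV-ERB and ROR receptors, and the cyclic AMP response element TGACGTCA with its half-site TGACG, which the full element contains.
Arntl, chr1:176766078-176766377, plus strand: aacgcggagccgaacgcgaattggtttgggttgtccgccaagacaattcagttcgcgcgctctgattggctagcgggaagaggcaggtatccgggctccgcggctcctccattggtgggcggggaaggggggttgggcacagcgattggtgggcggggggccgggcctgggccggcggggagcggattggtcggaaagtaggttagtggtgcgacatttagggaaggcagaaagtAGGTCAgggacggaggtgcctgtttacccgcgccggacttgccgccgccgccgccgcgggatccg
Nr1d1, upstream start, chr10:84231763-84232062, minus strand: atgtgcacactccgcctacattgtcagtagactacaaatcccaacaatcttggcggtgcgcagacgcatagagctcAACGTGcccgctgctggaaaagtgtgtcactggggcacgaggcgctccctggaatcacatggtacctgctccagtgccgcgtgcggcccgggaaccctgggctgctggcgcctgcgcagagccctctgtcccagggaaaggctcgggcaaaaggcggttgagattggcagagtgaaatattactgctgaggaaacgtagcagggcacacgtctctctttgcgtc
Nr1d1, downstream start, chr10:84229405-84229704, minus strand: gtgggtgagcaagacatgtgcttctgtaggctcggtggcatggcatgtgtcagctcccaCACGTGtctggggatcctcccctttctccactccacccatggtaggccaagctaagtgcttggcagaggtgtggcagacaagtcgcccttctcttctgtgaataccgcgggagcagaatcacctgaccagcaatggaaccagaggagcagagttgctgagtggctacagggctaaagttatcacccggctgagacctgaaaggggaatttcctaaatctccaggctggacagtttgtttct
Dbp, chr1:105312006-105312305, plus strand: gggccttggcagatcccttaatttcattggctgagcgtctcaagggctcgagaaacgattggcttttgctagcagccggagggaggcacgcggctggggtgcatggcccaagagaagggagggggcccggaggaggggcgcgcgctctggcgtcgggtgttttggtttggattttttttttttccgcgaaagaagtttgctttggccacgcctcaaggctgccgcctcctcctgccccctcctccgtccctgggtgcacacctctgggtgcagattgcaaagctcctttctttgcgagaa
The Arntl window held 1 match, an AGGTCA whose first base lay 15 bases before the start. Among all 33469 windows of this length in the table, 16.2% held that half-site. The upstream Nr1d1 window held CACGTT on the opposite strand, 174 bases before the start, which was found in 4.83% of windows. The downstream Nr1d1 window held the E-box CACGTG 191 bases before the start, which was found in 6.42% of windows. None of the letters searched occurred in the Dbp window or in either of the 2 Clock windows. The D-box, its variant, the cyclic AMP response element and its half-site stood in 0.89%, 0.86%, 1.83% and 21.2% of windows. A match describes the letters of these windows and not the binding of a factor.

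Levels are given as the deposited RPKM (read-pairs scaled to the length of the gene and the depth of the library), which allows comparison between genes. Differences are log2 fold changes from edgeR's quasi-likelihood test on the counts, with their standard error (SE) and a p adjusted over all genes tested, called at an adjusted-p under 0.05.

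**Figure D1:**
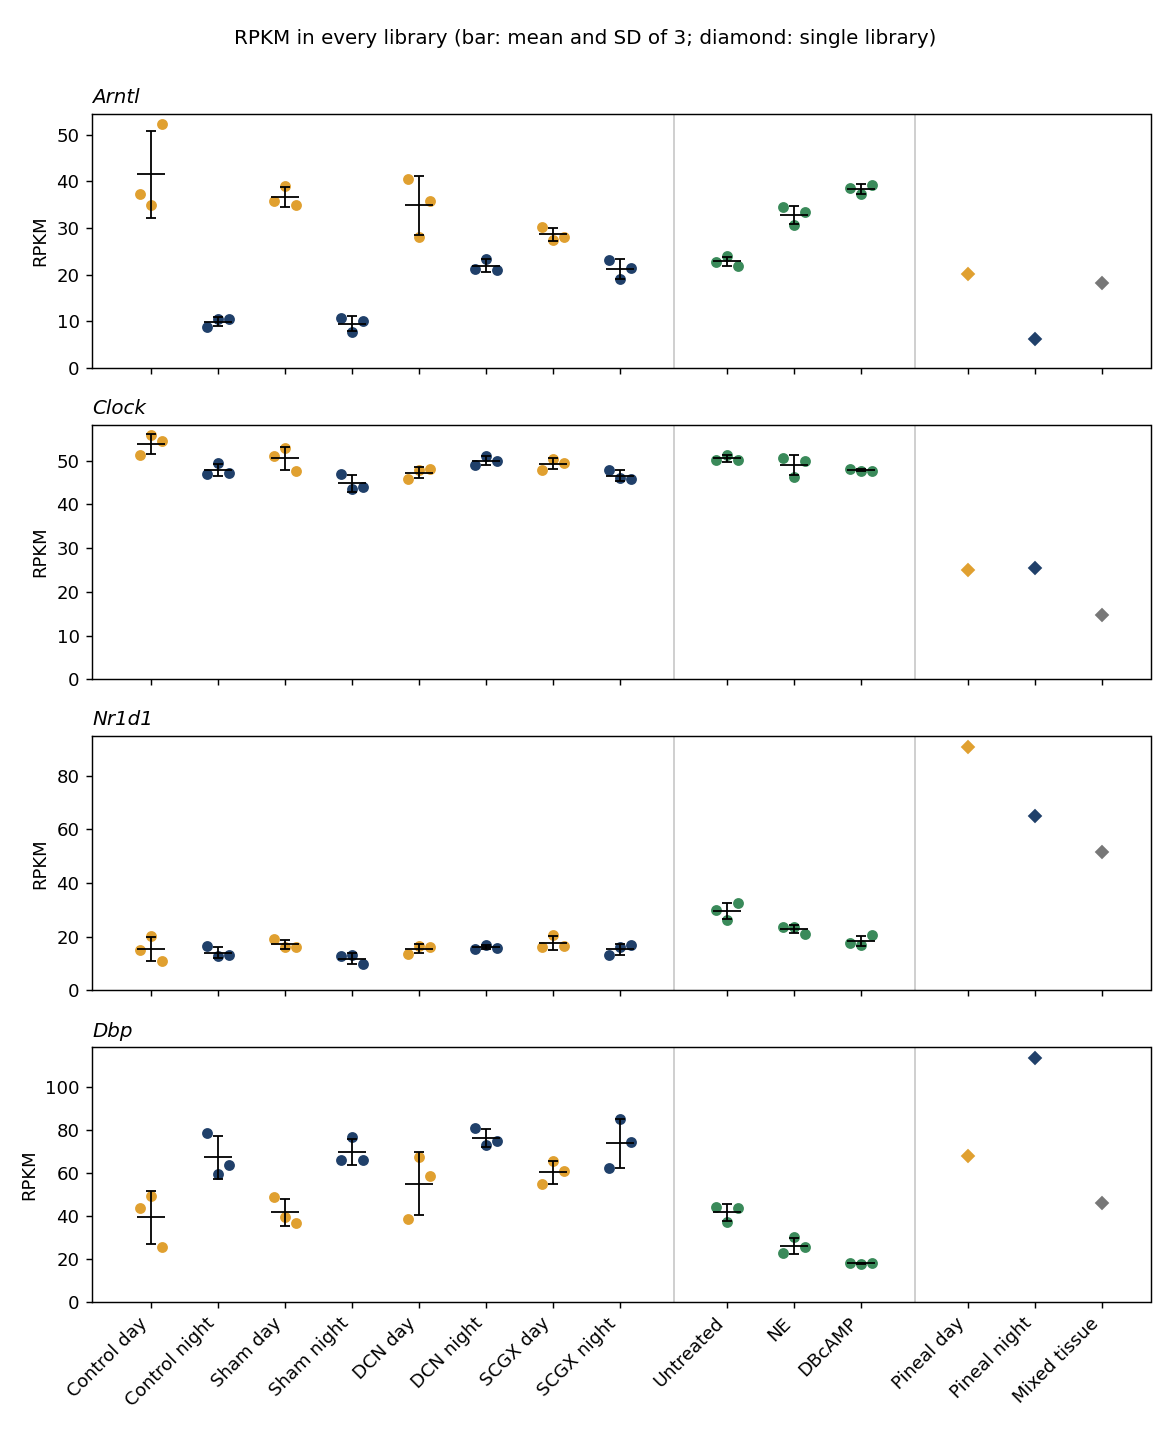
RPKM (vertical axes, from 0) of Arntl, Clock, Nr1d1 and Dbp in every library, by group; points are libraries (orange by day, blue at night, green in culture), bars the mean and SD of 3 libraries, and diamonds single libraries. Arntl was 34.99 to 52.3 in Control day and 8.80 to 10.6 in Control night libraries, while every Clock value in vivo lay between 43.6 and 55.8.

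The activator Arntl was the most changed of the 4 genes between night and day. In Control glands it stood at 37.3, 34.99 and 52.3 RPKM in the day libraries and at 8.80, 10.5 and 10.6 RPKM in the night libraries. In Sham glands it was 35.7, 39.1 and 35.05 RPKM by day and 10.7, 7.65 and 9.99 RPKM at night. Day and night did not overlap in either group, and every day library was more than 3 times the night mean. Arntl fell by 1.89 on the log2 scale at night in Control (SE 0.15, adjusted-p 3.12e-05) and fell by 1.89 in Sham (SE 0.14, adjusted-p 0.000308). It passed the study's stricter threshold of 0.001 in both, as did 9.4% of genes tested in Control and 2.29% in Sham. At 0.05, 35.3% were called in Control and 20.7% in Sham, and 1.42% and 1.37% had a log2 fold change below that of Arntl. With Control and Sham pooled as intact glands, Arntl fell by 1.92 (95% interval −2.16 to −1.69, adjusted-p 3.87e-08, n = 12 libraries), where 41.5% of genes were called.

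After the operations the night/day difference of Arntl was smaller, with a higher night level in both operated groups and a lower day level in SCGX. In DCN glands Arntl was 40.6, 28.05 and 35.9 RPKM by day and 21.2, 23.5 and 21.1 RPKM at night. In SCGX glands it was 30.3, 27.5 and 28.2 RPKM by day and 23.2, 18.97 and 21.4 RPKM at night. All night libraries remained below all day libraries in both groups, and all operated night libraries lay above all intact night libraries. By day all SCGX libraries lay below all intact libraries, while the DCN range overlapped the intact one. The log2 fold change in DCN was −0.64 (SE 0.14, 95% interval −0.97 to −0.31) with an unadjusted p of 0.00246 and an adjusted-p of 0.415. It was not called by edgeR, which called 0% of the 15924 genes in DCN, although 1433 had an unadjusted p under 0.05. DESeq2 called 120 genes there, among them Arntl at −0.64 (adjusted-p 0.0112). In SCGX Arntl fell by 0.47 at night (SE 0.08, adjusted-p 0.0254), where 1.79% of genes were called. That call was lost without SCGX day replicate 1 (adjusted-p 0.0943), SCGX day replicate 3 (0.104) or SCGX night replicate 3 (0.0682), and in 1 model for all in vivo libraries (0.322). DESeq2 called 616 of 15545 genes in SCGX, among them Arntl at −0.475 (adjusted-p 0.00016).

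With DCN and SCGX pooled as operated glands, Arntl fell by 0.56 at night (SE 0.09, 95% interval −0.74 to −0.37, adjusted-p 0.0194), and it ranked 21 by p among the 15768 genes tested, of which 0.495% were called. The call was lost without DCN night replicate 2 (adjusted-p 0.0575), SCGX day replicate 1 (0.0546) or SCGX night replicate 2 (0.0517). DESeq2 called 384 of the 15768 genes in operated glands, among them Arntl at −0.56 (adjusted-p 2.33e-06). Arntl kept its direction when any 1 library was left out. In the direct tests of the difference between night/day differences, Arntl's was smaller by 1.18 in DCN than in Sham (SE 0.21, adjusted-p 0.00399), by 1.35 in SCGX than in Sham (SE 0.17, adjusted-p 0.000179), and by 1.29 in operated than in intact glands (SE 0.15, adjusted-p 4.54e-07). The genes called in these tests were 11.3%, 18.5% and 30.6%.

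Set against Sham at the same time of day, Arntl was higher at night by 1.10 in DCN (SE 0.13, adjusted-p 0.00308) and by 1.06 in SCGX (SE 0.14, adjusted-p 0.00335), where 17.2% and 20.9% of genes were called. Both comparisons share the Sham night libraries. By day the DCN difference was −0.13 (95% interval −0.46 to 0.21, adjusted-p 0.641), with 2.15% of genes called. Arntl was lower in SCGX than in Sham by day, at −0.33 (SE 0.07, adjusted-p 0.0248), with 11.4% of genes called. That call was lost without Sham day replicate 2 (adjusted-p 0.0698), SCGX day replicate 1 (0.0519), SCGX day replicate 2 (0.0957) or SCGX day replicate 3 (0.0958), and in 1 model for all in vivo libraries (0.152). Sham and Control differed by −0.18 by day (95% interval −0.50 to 0.13) and by −0.11 at night (95% interval −0.47 to 0.26). None of the 4 genes was called between Sham and Control, where 0.0316% of genes were called by day and 0% at night by edgeR, with 1097 of 15774 at an unadjusted p under 0.05 at night and 76 called by DESeq2.

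Clock, the partner of Arntl, was the steadiest of the 4 and was called in none of the 18 comparisons fitted. Its RPKM was 51.3, 55.8 and 54.5 in Control day and 46.9, 49.5 and 47.2 in Control night libraries, and 51.01, 52.9 and 47.8 in Sham day and 47.1, 43.6 and 43.99 in Sham night libraries. In DCN it was 45.9, 47.96 and 48.1 by day and 49.2, 51.2 and 49.9 at night. In SCGX it was 47.9, 50.4 and 49.5 by day and 47.97, 46.1 and 45.8 at night. These RPKM ranges did not overlap between day and night in Control, Sham or DCN, the DCN night values being the higher ones. In Control and Sham this separation depended on the scaling. With RPKM scaled by TMM, day and night overlapped in Control and Sham. They did not overlap in DCN (night over day 1.08) or SCGX (0.91). RPKM divides by the total alone, and in Control the median of all genes shifted by −0.21 between day and night when library size was the only scaling, against −0.04 under TMM. Under TMM the log2 fold change of Clock was −0.00 in Control (95% interval −0.17 to 0.17), −0.10 in Sham (−0.30 to 0.10), 0.11 in DCN (−0.02 to 0.25) and −0.12 in SCGX (−0.23 to −0.00, adjusted-p 0.269). With library size only, Clock was called in intact glands at −0.17 (adjusted-p 0.00424), beside a median of −0.17 over all genes in that fit, and in the operated and intact interaction at 0.17 (adjusted-p 0.0143), beside a median of 0.17.

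Among the in vivo groups, Nr1d1, the repressor of Arntl, had the lowest mean RPKM of the 4 genes in every day group and in operated glands at night. It stood at 15.2, 20.2 and 10.9 RPKM in Control day and at 16.5, 12.7 and 13.1 RPKM in Control night libraries, and the ranges overlapped. In Sham it was 19.1, 16.2 and 16.2 RPKM by day and 12.9, 13.05 and 9.76 RPKM at night, with no overlap. In DCN it was 13.7, 16.6 and 16.3 RPKM by day and 15.6, 16.9 and 15.8 RPKM at night, and in SCGX 16.02, 20.6 and 16.6 RPKM by day and 13.1, 16.04 and 17.05 RPKM at night. The night/day log2 fold changes were 0.03 in Control (95% interval −0.45 to 0.51), −0.45 in Sham (−0.83 to −0.07, adjusted-p 0.0949), 0.08 in DCN (−0.14 to 0.31) and −0.23 in SCGX (−0.50 to 0.03). None was called. The Sham value was −0.22 (adjusted-p 0.229) without Sham night replicate 3, which had the lowest Nr1d1 of its group, and with library size only it was called at −0.53 (adjusted-p 0.0371). In intact glands together the value was −0.24 (adjusted-p 0.241), and without Control day replicate 3, which had the lowest Nr1d1 of its group, it was −0.36 (adjusted-p 0.0369). Without Sham night replicate 3 the intact value was −0.07 (adjusted-p 0.722). Against Sham at night, Nr1d1 differed by 0.31 in DCN and 0.26 in SCGX, neither called, and by 0.11 and 0.03 without that library. ZT7 and ZT19 sample the day at only 2 times, so a peak between them would not be seen.

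The output gene Dbp moved against Arntl. Its RPKM was 43.4, 49.2 and 25.6 in Control day and 78.6, 59.6 and 63.8 in Control night libraries, and 48.8, 39.7 and 36.6 in Sham day and 66.0, 76.8 and 66.2 in Sham night libraries. No day library of either group reached the lowest night library. Dbp rose at night by 0.93 in Control (SE 0.22, adjusted-p 0.0117) and by 0.81 in Sham (SE 0.14, adjusted-p 0.00783), neither of which passed 0.001. In intact glands together it rose by 0.84 (SE 0.15, 95% interval 0.52 to 1.16, adjusted-p 0.000563).

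In operated glands no night/day difference of Dbp was called. DCN libraries held 38.7, 67.4 and 58.8 RPKM by day and 81.1, 73.1 and 74.8 RPKM at night, and SCGX libraries held 54.7, 65.4 and 60.97 RPKM by day and 62.1, 84.9 and 74.2 RPKM at night. Day and night did not overlap in DCN and overlapped in SCGX. The log2 fold changes were 0.51 in DCN (95% interval 0.07 to 0.94, adjusted-p 0.524) and 0.26 in SCGX (0.00 to 0.51, adjusted-p 0.272), and 0.38 in both together (0.12 to 0.64, adjusted-p 0.194). Leaving out 1 library gave 0.31 to 0.66 in DCN, the lowest without DCN day replicate 1 (adjusted-p 0.653), and 0.14 to 0.36 in SCGX, the lowest without SCGX night replicate 2. Against Sham at night, Dbp differed by 0.01 in DCN (95% interval −0.22 to 0.25) and by −0.02 in SCGX (−0.34 to 0.29). By day it was higher in SCGX than in Sham by 0.56 (SE 0.12, adjusted-p 0.0228), and the difference in DCN was 0.34 (95% interval −0.14 to 0.83, adjusted-p 0.367), or 0.54 (adjusted-p 0.0869) without DCN day replicate 1 and 0.18 without DCN day replicate 2. The SCGX call was lost without Sham day replicate 2 (adjusted-p 0.0699), SCGX day replicate 2 (0.0873) or SCGX day replicate 3 (0.1003), and in 1 model for all in vivo libraries (0.0911).

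The night/day difference of Dbp was smaller in SCGX than in Sham by 0.63 (SE 0.20, adjusted-p 0.046) and smaller in operated than in intact glands by 0.54 (SE 0.20, adjusted-p 0.0467), both close to the threshold. The SCGX call held only without Sham day replicate 1, Sham night replicate 3, SCGX day replicate 1 or SCGX night replicate 2, and was lost in the other 8 of 12 fits that left out 1 library. The operated call was lost in 16 of 24 such fits, with adjusted p-values up to 0.0874, and held without Control day replicates 1 or 2, Control night replicate 2, DCN day replicate 1, DCN night replicate 1, Sham day replicate 1, Sham night replicate 3 or SCGX night replicate 2. With library size only the SCGX difference was −0.45 (adjusted-p 0.0986) and the operated one −0.38 (adjusted-p 0.140), neither called. In 1 model for all in vivo libraries both calls were lost (adjusted-p 0.135 and 0.0524), and the operated call was also lost without a filter on low counts (0.0544) and when each library had to hold 10 or more read-pairs of a gene (0.0684). In DCN against Sham the difference was −0.37 (95% interval −0.93 to 0.20, adjusted-p 0.401), and −0.64 (adjusted-p 0.0442) without DCN day replicate 1 and Sham night replicate 3.

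**Figure D2:**
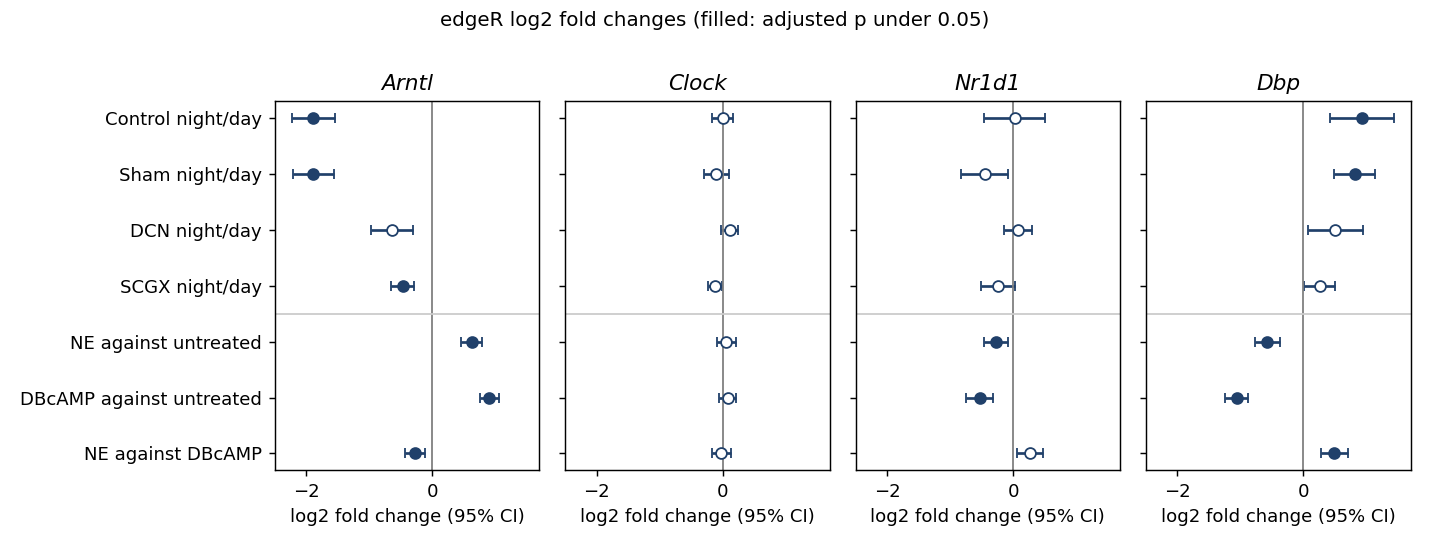
Log2 fold changes (horizontal axes) of the 4 genes with 95% intervals for the night/day comparisons of the 4 surgical groups and the 3 comparisons of cultures; filled points passed an adjusted-p of 0.05. Arntl lay at −1.89 in Control and Sham and at 0.91 under DBcAMP, Dbp lay at 0.93 in Control and −1.06 under DBcAMP, and all Clock points lay within 0.12 of 0.

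In culture, with no night and no nerve supply, both agents moved Arntl up and Dbp down. Arntl was 22.8, 23.9 and 21.9 RPKM in untreated glands, 34.4, 30.6 and 33.4 RPKM after NE and 38.5, 37.3 and 39.3 RPKM after DBcAMP. The 3 groups did not overlap. Arntl rose by 0.62 with NE (SE 0.08, adjusted-p 1.3e-05) and by 0.91 with DBcAMP (SE 0.07, adjusted-p 3.72e-07), where 30.1% and 41.7% of genes were called. Both comparisons share the untreated libraries. NE against DBcAMP gave −0.28 for Arntl (SE 0.07, adjusted-p 0.0431), with 6.35% of genes called. That call held only in 1 of 6 fits that left out a library, the one without NE replicate 1, and the adjusted-p of the other 5 was 0.0633 to 0.156. It was also lost with library size only (adjusted-p 0.0728).

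Dbp was 44.0, 37.2 and 43.7 RPKM in untreated glands, 22.9, 30.2 and 25.4 RPKM after NE and 17.9, 17.6 and 18.1 RPKM after DBcAMP, again without overlap. It fell by 0.57 with NE (SE 0.10, adjusted-p 0.000273) and by 1.06 with DBcAMP (SE 0.09, adjusted-p 7.59e-07). With DBcAMP, 2.49% of genes tested had a lower log2 fold change than Dbp. Dbp was higher after NE than after DBcAMP by 0.49 (SE 0.10, adjusted-p 0.00915), and that call held in all 6 fits that left out 1 library.

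Nr1d1 followed Dbp in direction. It was 30.1, 26.4 and 32.4 RPKM in untreated glands, 23.8, 23.8 and 21.2 RPKM after NE and 17.8, 16.8 and 20.5 RPKM after DBcAMP. Nr1d1 fell by 0.53 with DBcAMP (SE 0.10, adjusted-p 0.000806) and by 0.27 with NE (SE 0.09, adjusted-p 0.0306). The NE call was lost without Untreated replicate 1 (adjusted-p 0.0525), Untreated replicate 3 (0.162), NE replicate 2 (0.0729) or NE replicate 3 (0.176), and DESeq2 gave an adjusted-p of 0.0507. NE and DBcAMP differed by 0.27 (95% interval 0.06 to 0.47, adjusted-p 0.127). Clock was 50.1, 51.4 and 50.2 RPKM untreated, 50.7, 46.4 and 49.9 RPKM after NE and 48.1, 47.7 and 47.7 RPKM after DBcAMP, with log2 fold changes of 0.06 (95% interval −0.09 to 0.20) and 0.08 (−0.05 to 0.22). The agents acted for 6 h at a single dose each, and the doses of NE and DBcAMP differ.

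Over the 11 replicated groups Arntl ordered from Control day (41.5 ± 9.39 RPKM, SD, n = 3) through DBcAMP, Sham day, DCN day and NE to SCGX day, untreated, DCN night and SCGX night, with Control night (9.94 ± 0.99) and Sham night (9.45 ± 1.60) at the bottom. Only 3 steps in that order separated neighbours without overlap, NE from SCGX day, SCGX day from untreated, and SCGX night from Control night. Dbp ran from DCN night (76.3 ± 4.22 RPKM) to DBcAMP (17.9 ± 0.28), and the single step without overlap was that from NE to DBcAMP. Nr1d1 was highest in untreated cultures (29.6 ± 3.01 RPKM), then NE, then DBcAMP, and all in vivo means lay below those, between 11.9 and 17.7. The neighbouring means of Clock, from 53.9 to 44.9, all overlapped. Cultured and fresh glands are separate experiments, so a difference between them cannot be told apart from their age, sex and preparation.

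A ratio taken within a library does not depend on the library's scaling. On the log2 scale, Dbp over Arntl in RPKM was 0.22, 0.49 and −1.03 in Control day and 3.16, 2.51 and 2.59 in Control night libraries, and 0.45, 0.02 and 0.06 in Sham day and 2.62, 3.33 and 2.73 in Sham night libraries. The night ratio was 7.27-fold the day ratio in Control and 6.57-fold in Sham. In DCN the ratios were −0.07, 1.26 and 0.71 by day and 1.93, 1.64 and 1.83 at night, 2.24-fold higher at night. In SCGX they were 0.85, 1.25 and 1.11 by day and 1.42, 2.16 and 1.79 at night, 1.64-fold higher at night. Day and night ratios did not overlap in any of the 4 groups. In culture the ratio was 0.95, 0.64 and 0.998 untreated, −0.59, −0.02 and −0.40 after NE and −1.11, −1.09 and −1.12 after DBcAMP, that is 0.44-fold and 0.26-fold the untreated ratio. Each of these comparisons gave a two-sided exact permutation p of 0.1, the smallest that 3 against 3 libraries can give, so none can pass 0.05. Nr1d1 over Arntl differed 3.85-fold in Control, 2.70-fold in Sham, 1.64-fold in DCN and 1.18-fold in SCGX, where day and night overlapped (exact permutation p 0.3).

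**Figure D3:**
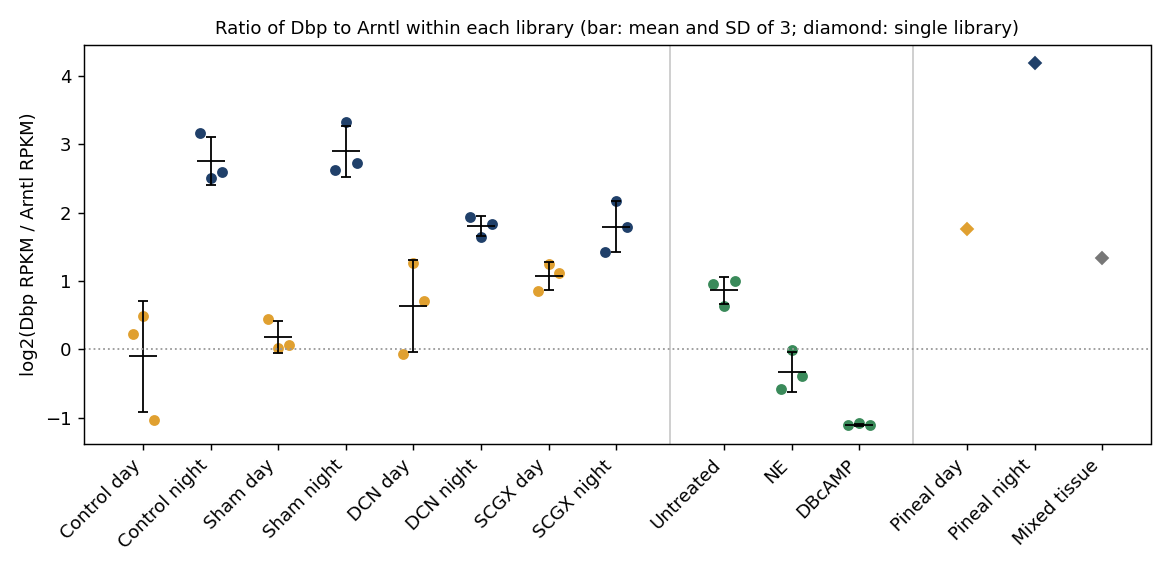
Log2 ratio of Dbp to Arntl RPKM within each library (vertical axis) by group; points are libraries, bars the mean and SD of 3 libraries, diamonds single libraries, and the dotted line a ratio of 1. Control night libraries lay between 2.51 and 3.16 and SCGX night libraries between 1.42 and 2.16, and the DBcAMP libraries lay between −1.12 and −1.09.

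The share of the intact night/day difference that was left in operated glands was computed after the values had been seen. Of the 1355 genes that passed an adjusted-p of 0.05 and a 2-fold difference in intact glands and were tested in operated glands, 22 were called in operated glands in the same direction and 1 in the opposite one. Arntl is among the 22. The operated log2 fold change was 29.0% of the intact one for Arntl. For Dbp it was 45.3%, but Dbp is below the 2-fold limit. Its operated difference was not called (0.38, 95% interval 0.12 to 0.64). These shares have no interval, so they do not rank Arntl and Dbp. In the median of the 1355 genes the share was 4.67%. Among the 604 of these that were lower at night the median was 8.39%, and 101 (16.7%) kept a share as large as that of Arntl. Intact and operated glands share no libraries, but the 1355 genes were chosen for their intact difference.

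Over the 8 in vivo group means of log2 CPM, 11706 genes were compared with each member by the root mean square difference of their centred profiles. The nearest to Arntl was ENSRNOG00000021086 (0.11), with night/day differences of −1.84 in Control, −1.45 in Sham, −0.59 in DCN and −0.42 in SCGX. The nearest to Dbp were ENSRNOG00000010944 and ENSRNOG00000007152, at 0.10 each. The reference tables used here do not pair these identifiers with symbols.

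The libraries without replicates gave the same direction for Arntl and Dbp between ZT7 and ZT19. Arntl was 20.1 RPKM in the pineal day, 6.22 in the pineal night and 18.2 in the mixed-tissue library, and its night/day ratio was 0.31 (95% exact interval 0.28 to 0.34, counting error only). Dbp was 67.8, 113.6 and 45.98 RPKM, with a night/day ratio of 1.68 (1.61 to 1.75). Clock was 24.9, 25.4 and 14.7 RPKM, a pineal over mixed-tissue ratio of 1.69 by day (1.58 to 1.81). Nr1d1 was 90.7, 64.9 and 51.7 RPKM, a ratio of 1.75 by day (1.69 to 1.82) and 1.26 at night (1.21 to 1.31), and all 4 genes were counted in the mixed tissue too. These libraries compare single pools and carry no test. Nr1d1 there was 5.87-fold the Control day mean and 4.60-fold the Control night mean, and Dbp 1.72-fold and 1.69-fold, whereas Clock was 2.16-fold and 1.88-fold lower and Arntl 2.07-fold and 1.60-fold lower. The part of library preparation, age or animals in these gaps was not tested.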

How the data were processed

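RNA was measured in 36 libraries, grouped by their labels. The authors made stranded libraries from ribo-depleted total RNA, aligned the reads with STAR 2.3.1y to rn4 with Ensembl release 69 and counted read-pairs per gene by HTSeq's union rule, per the labels and the study's methods. The deposited counts are whole numbers of read-pairs, not normalized. The deposited RPKM values are the same counts scaled by gene length and by each library's total on genes. Pools held 3 glands per tube, and each surgical group 18 to 20 animals before pooling. Nr1d1 overlaps the neighbouring gene Thra on the opposite strand, and the strand setting of the counting is not given in the sources used here.

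Counts were tested with edgeR 4.0.16 (quasi-likelihood, TMM, R 4.3.3) over the genes whose normalized count averaged 5 or more across the fitted libraries, with Benjamini-Hochberg adjustment, and called at an adjusted-p under 0.05. The study's own threshold of 0.001 and its tool, DESeq2 (here 1.42.0, as an alternative), were also used. The exact permutation tests used SciPy 1.17.1. Each comparison was fitted on its own libraries. The 3 libraries of the pineal and mixed-tissue experiment had no replicates and were not tested. No 2 replicates agreed within sampling noise, with a chi-square per degree of freedom of 6.17 to 44.41 over 33 pairs. Some of the fits were tested on simulated data and recovered the folds put in. Only a small set of genes was changed there, by 2-fold or more. Smaller differences, and changes in a large share of genes, were not simulated.

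The alternatives were DESeq2, median-of-ratios factors, scaling by library size alone, testing without the filter or with 10 or more read-pairs required of each library, 1 model for all libraries of an experiment, a replicate block, leaving out each library, leaving out DCN day replicate 1 and Sham night replicate 3 together, TMM-scaled RPKM and ratios of CPM. The genes named were the 4 members and the profiles most similar to Arntl and Dbp among genes with a mean count of at least 50. Those most similar to Clock and Nr1d1 were computed but are not named. Members, lists and tests were chosen with earlier results of these data known. Promoter windows were matched by symbol, Arntl as Bmal1, and all 4 genes matched. In 1881 of 1881 pairs of overlapping windows on opposite strands the sequences were reverse complements, so each reads along its gene. The reference tables pair no symbols with the Ensembl identifiers of the files, so a planned list of other clock genes and lists of cell type markers were not analysed here.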

Additional observations from a re-analysis of the deposited data

Results flagged for a closer look

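5 differences between groups in the night/day difference of a member passed the test of the difference itself. Each test covered the 4 members. Over all genes, 11.3% were called in the DCN and Sham interaction and 18.5% in the SCGX and Sham interaction. In the operated and intact interaction 30.6% were called. These tests share libraries, so their calls are not separate results. For Arntl the night/day log2 fold change was higher, that is closer to 0, by 1.18 in DCN than in Sham, by 1.35 in SCGX than in Sham and by 1.29 in operated than in intact glands. For Dbp it was lower in SCGX than in Sham (a difference of −0.63) and lower in operated than in intact glands (−0.54). The Arntl differences kept their calls in all fits that left out 1 library (12, 12 and 24 fits), and the Dbp differences kept theirs in 4 of 12 and 8 of 24. No group held the 4 or more libraries that a search for single outlying libraries needs.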

How the results depend on the processing

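Among the 287 recounts of called members, 234 stayed within 1.5 times the main count, 50 fell below it and 3 rose above it. Of 1148 refits of single members, 1010 kept direction and side of the threshold, 60 lost and 7 gained a call, and 71 changed sign, all of members uncalled in both fits. The cause was not tested. DESeq2 called 1 member in DCN night/day against 0. Library size only and the fit without DCN day replicate 1 and Sham night replicate 3 each called 2 in the DCN and Sham interaction against 1. One model for all libraries of the experiment called 0 in SCGX night/day against 1, 0 in SCGX against Sham by day against 2, and 1 against 2 in the SCGX and Sham and the operated and intact interactions. Library size only called 1 against 2 in the SCGX and Sham interaction and in NE against DBcAMP, and no count filter and at least 10 read-pairs each called 1 against 2 in the operated and intact interaction. There, library size only kept the count at 2 because Clock gained a call and Dbp lost one. Leaving out 1 library gave 0 to 1 members in SCGX night/day and in operated glands, 0 to 2 in SCGX against Sham by day, and 1 to 2 in the SCGX and Sham interaction, the operated and intact interaction and NE against DBcAMP.

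Same-numbered replicates did not deviate together (correlations of −0.247 to 0.199 over 39 pairs, and 0 of 13 comparisons with every pair over 0.1), so the numbers do not pair the libraries. With the replicate block, 1 member against 2 was called in SCGX against Sham by day, in the SCGX and Sham interaction and in NE against DBcAMP, the lost members being Arntl (adjusted-p 0.0597), Dbp (0.0525) and Arntl (0.0971), and the genes called over the whole table went from 3328 to 2208 in Sham night/day, 278 to 160 in SCGX, 346 to 66 in DCN against Sham by day, 2739 to 1613 at night, 3310 to 2170 in SCGX against Sham at night, 5 to 0 in Sham against Control by day and 953 to 603 in NE against DBcAMP.

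DESeq2 called 616 genes in SCGX night/day against 278, 384 in operated glands against 78, 1439 in DCN against Sham by day against 346, and 104 in Sham against Control by day against 5. One model for all libraries called 5541 in Sham night/day, 21 in DCN, 25 in SCGX, 1643 and 4973 in DCN against Sham by day and night, 0 and 15 in Sham against Control by day and night, and 3370 against 1819 in the DCN and Sham interaction. No count filter called 5 in DCN, 658 in SCGX, and 10 and 1 in Sham against Control by day and night, and at least 10 read-pairs called 579 in DCN against Sham by day.

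The log2 fold changes of members that were uncalled in both fits and changed sign were as follows. With DESeq2, Clock was 0.025 in Control, −0.017 in DCN against Sham at night and −0.0062 in the operated and intact interaction, and Dbp was −0.044 in DCN against Sham at night. With median-of-ratios factors, Clock was 0.023 in Control, −0.017 in DCN against Sham at night and −0.006 in the operated and intact interaction, and Dbp was −0.043 in DCN against Sham at night. Without a count filter, Clock was 0.005 in Control. In 1 model for the experiment, Clock was 0.014 in Control and −0.0054 in DCN against Sham at night, and Dbp was −0.032 in DCN against Sham at night and −0.0082 in Sham against Control at night. With library size only, Nr1d1 was −0.13 in Control, and Clock was 0.0002 in operated glands, 0.055 in SCGX against Sham at night, 0.092 in the SCGX and Sham interaction, −0.044 in NE, −0.079 in DBcAMP and 0.035 in NE against DBcAMP, and Dbp was 0.082 in SCGX against Sham at night. Without DCN day replicate 1 and Sham night replicate 3, Clock was 0.021 in Sham, 0.022 in intact glands, −0.058 in DCN against Sham at night and −0.052 in the operated and intact interaction, and Nr1d1 was −0.0009 in DCN, −0.030 in the SCGX and Sham interaction and −0.067 in the operated and intact interaction, and Dbp was −0.10 in DCN against Sham at night.

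Leaving out 1 library gave Clock values of −0.041 to 0.062 in Control, −0.15 to 0.021 in Sham, −0.11 to 0.022 in intact glands, −0.027 to 0.016 in operated glands, −0.058 to 0.090 in DCN against Sham at night, −0.0605 to 0.027 in SCGX against Sham by day, −0.027 to 0.033 in the operated and intact interaction and −0.064 to 0.042 in NE against DBcAMP. Leaving out 1 library gave Nr1d1 values of −0.19 to 0.29 in Control, −0.0009 to 0.14 in DCN, −0.043 to 0.15 in SCGX against Sham by day, −0.072 to 0.40 in Sham against Control by day, −0.030 to 0.25 in the SCGX and Sham interaction and −0.010 to 0.21 in the operated and intact interaction. Leaving out 1 library gave Arntl values of −0.25 to 0.017 in DCN against Sham by day and −0.23 to 0.022 in Sham against Control at night. Leaving out 1 library gave Dbp values of −0.10 to 0.10 in DCN against Sham at night, −0.17 to 0.087 in SCGX against Sham at night, −0.18 to 0.28 in Sham against Control by day and −0.059 to 0.13 in Sham against Control at night.

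TMM scaling moved 11 mean RPKM values by more than 1 SD, Arntl to 21.6 in untreated, 40.2 in DBcAMP and 11.2 in Control night, Clock to 47.7 in untreated, 50.1 in DBcAMP, 53.8 in Control night, 44.3 in DCN day, 47.96 in DCN night, 48.3 in Sham night and 44.7 in SCGX night, and Dbp to 18.7 in DBcAMP. Median-of-ratios scaling moved the log2 ratios of the pineal night library beyond their counting interval, to −1.33, 1.01, 0.55 and 1.52 over mixed tissue and to −1.46, 0.26, −0.26 and 0.97 over pineal day for Arntl, Clock, Nr1d1 and Dbp. The ratios within libraries stayed within 1 SD, but these alternatives could not give another outcome. A CPM ratio differs from the RPKM ratio by a constant, and leaving out 1 library cannot move a group mean that far.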

Other observations

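Within groups of 3 libraries made at the same time and treatment, Arntl and Dbp tended to stand at opposite ends, a pattern counted after it was noticed and not tested. The library with the highest Arntl RPKM had the lowest Dbp RPKM in 8 of the 11 replicated groups, and the lowest Nr1d1 RPKM in 5 of 11. With 3 libraries per group, unrelated genes would match in 1 of 3 groups, and 5 of 11 is near that share. How many other pairs of genes reach such counts was not computed. The library with the lowest Arntl had the highest Dbp in 7 of 11. DBcAMP cultures went the other way, with replicate 3 highest and replicate 2 lowest in both Arntl and Dbp. The library with the lowest Dbp also had the lowest Nr1d1 in 8 of 11. Control day replicate 3 was the plainest case, with 52.3 RPKM of Arntl against 37.3 and 34.99 in the other libraries, 25.6 RPKM of Dbp against 43.4 and 49.2, and 10.9 RPKM of Nr1d1 against 15.2 and 20.2. DCN day replicate 1 stood the same way, with 40.6 RPKM of Arntl against 28.05 and 35.9, and 38.7 RPKM of Dbp against 67.4 and 58.8. The exact time at which each pool was collected was not analysed here.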
